A study of Mus musculus with 2 samples.

Results

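Cells of the mouse tongue epithelium that were rich in transcripts of late cell cycle genes were described, in single-cell RNA-sequencing libraries collected at 2 Zeitgeber times, ZT0 and ZT12. These cells, called mitotic-rule cells below, were chosen by the summed counts of 6 genes, Top2a, Mki67, Ube2c, Cenpf, Birc5 and Nusap1. A cell was kept when it held at least 500 genes, at least 5000 unique molecular identifiers (UMIs, each standing for 1 captured transcript) and under 10% mitochondrial UMIs, and it was a mitotic-rule cell when the 6 genes together gave at least 10 of every 10000 of its UMIs. This took in 230 of 4078 kept cells, of which 187 of 1525 came from ZT0 and 43 of 2553 from ZT12.

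Both groups were male B57BL/6 mice, spelled as the labels give the strain, aged 8 to 12 weeks, and the labels name no allele or treatment for either. The epithelium was minced and digested with TrypLE, a trypsin-like enzyme, and cells that excluded the viability dye 7-AAD were sorted and made into droplet libraries that read the 3' end of each transcript. There was 1 library per time, and how many mice went into each is not stated in the labels. Every difference below is therefore a difference between cells or between 2 libraries, no test was made, and the 95% intervals cover counting error only.

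A dividing cell first licenses its replication origins, then copies its DNA in S phase while it makes histones, and then builds up the cyclins, kinases, motors and kinetochore proteins with which it separates its chromosomes in mitosis. In stratified epithelia such as that of the tongue, division is known mainly from the basal layer, which rests on the basement membrane, and cells that leave this layer stop dividing and make the keratins of the suprabasal and cornified layers. Many mitotic genes are switched on in G2 phase through a short promoter element called the CHR (cell cycle genes homology region), often with CCAAT boxes beside it, whereas many S phase genes carry sites of E2F factors.

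The promoters of 6 genes named in the results below are shown, 5 from the mitotic lists and 1 from the replication list. Genes of these 2 kinds were used to choose the groups of cells compared below. The 6 are examples that all hold the letters marked, which many other genes of the same lists lack. Each line gives the strand of the gene from 170 bases before to 30 bases after the RefSeq transcription start, on GRCm38.p6. Capitals mark the CHR letters TTTGAA on either strand in the mitotic genes, and the E2F-type letters TTTNNCGC on either strand in Mcm6.
Cdc20: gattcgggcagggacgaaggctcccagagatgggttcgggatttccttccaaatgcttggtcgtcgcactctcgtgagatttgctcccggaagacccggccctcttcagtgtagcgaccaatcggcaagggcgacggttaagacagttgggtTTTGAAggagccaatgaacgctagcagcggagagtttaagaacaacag
Ccnb2: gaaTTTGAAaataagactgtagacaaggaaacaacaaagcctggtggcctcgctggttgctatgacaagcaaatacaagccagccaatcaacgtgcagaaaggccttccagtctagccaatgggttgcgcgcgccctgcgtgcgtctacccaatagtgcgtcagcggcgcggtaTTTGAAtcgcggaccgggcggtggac
Cenpa: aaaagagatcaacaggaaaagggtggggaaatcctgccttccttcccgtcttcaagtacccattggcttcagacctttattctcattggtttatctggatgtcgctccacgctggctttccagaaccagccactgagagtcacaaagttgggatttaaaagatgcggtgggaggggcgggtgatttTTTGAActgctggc
Hmmr: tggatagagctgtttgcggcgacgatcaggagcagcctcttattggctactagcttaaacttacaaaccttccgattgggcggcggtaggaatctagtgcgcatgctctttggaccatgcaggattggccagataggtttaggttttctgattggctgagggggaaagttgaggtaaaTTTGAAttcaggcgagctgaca
Kif11: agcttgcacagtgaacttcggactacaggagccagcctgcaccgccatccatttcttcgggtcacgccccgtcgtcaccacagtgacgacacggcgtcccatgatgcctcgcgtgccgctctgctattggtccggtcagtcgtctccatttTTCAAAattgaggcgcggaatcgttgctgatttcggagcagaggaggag
Mcm6: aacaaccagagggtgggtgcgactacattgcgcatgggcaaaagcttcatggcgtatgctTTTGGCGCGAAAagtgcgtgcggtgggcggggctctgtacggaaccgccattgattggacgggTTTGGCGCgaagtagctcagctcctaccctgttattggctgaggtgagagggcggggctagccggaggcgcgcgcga
The windows lie at chr4:118437314-118437513 (minus strand) for Cdc20, chr9:70421525-70421724 (minus) for Ccnb2, chr5:30666716-30666915 (plus) for Cenpa, chr11:40733408-40733607 (minus) for Hmmr, chr19:37376212-37376411 (plus) for Kif11 and chr1:128359676-128359875 (minus) for Mcm6. In Cdc20, the activator of the anaphase-promoting complex, the CHR letters began 18 bases before the start. In Kif11, the motor that pushes spindle poles apart, they stood 19 bases before the start and read TTCAAA on the strand of the gene. In Cenpa, the histone H3 variant that marks centromeres, and in Hmmr, a spindle assembly factor, they came 17 and 9 bases after the start. Ccnb2, which encodes cyclin B2, held them at 167 bases before and at 5 bases after the start. Mcm6, a subunit of the replicative helicase, held 3 E2F-type matches, at 110, 106 and 47 bases before the start, of which the first 2 overlapped.

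Over windows of 250 bases before to 50 bases after the start, the CHR letters were found in 49 of 94 genes of 6 mitotic lists joined (52.1%; cyclins and kinases, spindle, kinetochore, checkpoint, cytokinesis and condensin genes, the rule genes left out) and in 3769 of the 20267 genes of the count tables that have a window (18.6%), which are the background here. They stood in 18 of 21 spindle and motor genes (85.7%) and in 9 of 24 kinetochore and centromere genes (37.5%). Among 31 S phase genes with a window, 6 held the CHR letters (19.4%) and 14 the E2F-type letters (45.2%), which 6.69% of the background genes held. CCAAT, searched on both strands as well, was in 63.8% of the mitotic genes, in 22 of 31 S phase genes (71.0%), in 8 of 11 licensing genes (72.7%) and in 41.7% of the background genes. Of the 87 genes higher than in replicating cells in both libraries, described further on, 66 had a window and 36 of these held the CHR letters (54.5%). Genes of the mitotic lists, such as Cenpa and Hmmr, are among these 87, so this share is not separate from that of the lists. The letters of these motifs can share bases, and a match describes letters in a window, not a bound site.

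The ZT0 library held 1726 barcodes and 49826740 UMIs, and the ZT12 library 2819 barcodes and 67901140 UMIs. The median kept cell held 29223 UMIs and 5265 genes in the ZT0 library and 23456 UMIs and 4747 genes in the ZT12 library. Mitotic-rule cells were deeper than the other kept cells, with ZT0 medians of 38859 against 27577 UMIs and ZT12 medians of 25744 against 23420.5. Levels are therefore given relative to the total UMIs of a cell or group, either per 10000 UMIs of a cell or as CPM, the usual scaling of the summed UMIs of a group to a common total. A sum cannot tell more cells with a transcript from more transcript per cell. The libraries shared 2 kept barcodes, and none of them was a mitotic-rule cell.

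The summed level of the 6 rule genes ran from 10.03 over a median of 42.3 to 94.6 per 10000 UMIs in the ZT0 mitotic-rule cells, and from 10.36 over 18.9 to 86.9 in those of ZT12. The lowest cells inside the limit stood at 10.03 (ZT0) and 10.36 (ZT12), and the highest outside it at 9.87 and 9.68. At ZT0 the limit fell in a sparse stretch, with 6 cells from 7.5 to 10 and 3 from 10 to 12.5, while 104 cells lay from 40 to 100. At ZT12 13 and 5 cells lay in the same 2 stretches and 5 cells from 40 to 100. The mitotic-rule cells held 95.2% of all UMIs of the 6 genes at ZT0 and 60.2% at ZT12. These values chose the cells and are given as a description.

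**Figure D1:**
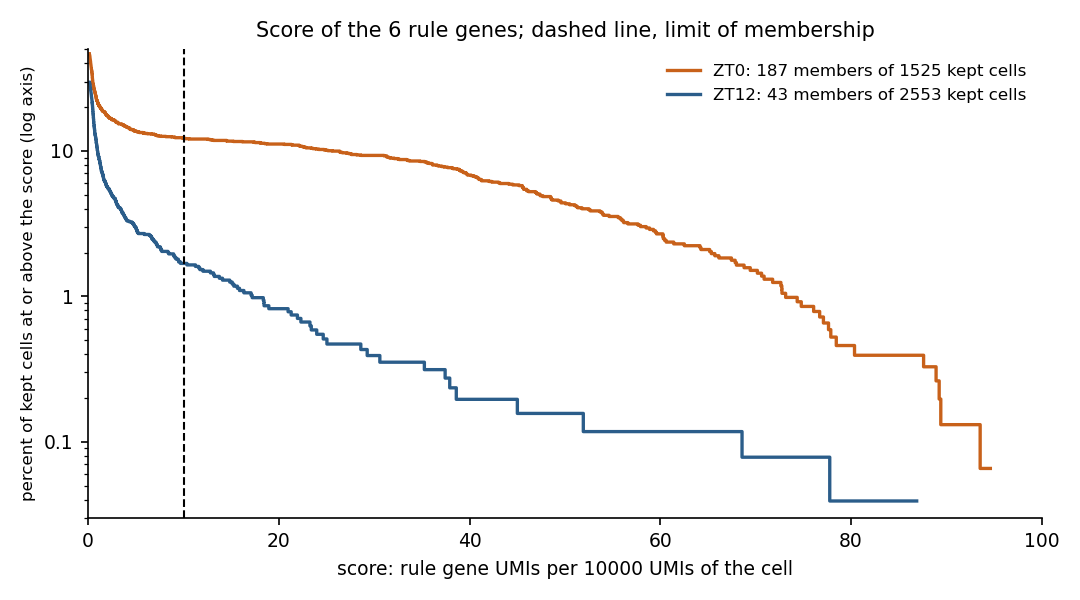
Percent of kept cells at or above each summed level of the 6 rule genes, on a log axis, against that level per 10000 UMIs of the cell, with 1 line per library and the limit of 10 marked. At the limit the ZT0 line stands at 12.3% and the ZT12 line at 1.68%.

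Mitotic-rule cells made up 12.3% (10.7 to 14.0) of the kept cells at ZT0 and 1.68% (1.22 to 2.26) at ZT12, a ratio of 7.28 (5.2 to 10.4). A digestion and a sort came before the cells were counted, so these are shares of sorted cells. The size of the ratio depended on the limit. It was 4.58 with a limit of 5 per 10000, 13.6 with a limit of 20, and 11.7 when cells were chosen by Ccnb1, Cdc20, Plk1, Aurka, Tpx2 and Ccnb2 instead. It was 6.85 without the 5% of cells with the most UMIs in each library, a check run because no doublet caller was used, and 7.15 after every cell was thinned to 10000 UMIs.

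Cells that carried replication transcripts without reaching the mitotic limit showed the opposite order. Replicating cells are here the other kept cells in which a list of 43 S phase genes reached 16 per 10000 UMIs. There were 85 at ZT0 (5.57% of kept cells) and 318 at ZT12 (12.5%), a ratio of 0.447 (0.348 to 0.570). Mitotic-rule cells that reached the same S phase limit are left out of these counts by definition. They made up a further 9.57% of kept cells at ZT0 and 1.02% at ZT12. The ratio is therefore not that of all cells with replication transcripts. Of the mitotic-rule and replicating cells combined, mitotic-rule cells were 187 of 272 (68.75%) at ZT0 and 43 of 361 (11.9%) at ZT12, a ratio of 5.77 (4.12 to 8.24).

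The name of mitotic cells was only partly matched by the transcripts. S phase transcripts reached the same limit of 16 per 10000 in 146 of 187 mitotic-rule cells at ZT0 (78.1%, 71.5 to 83.8) and in 26 of 43 at ZT12 (60.5%, 44.4 to 75). The group thus took in cells with replication transcripts as well as cells without them, and is called by its rule for that reason. A list of 12 late mitotic genes, with Cdc20, cyclin B and centromere genes, ran from 4.45 over 31.0 to 82.5 per 10000 at ZT0 and from 2.46 over 14.6 to 101 at ZT12. The S phase list ran from 5.52 over 31.3 to 89.7 at ZT0 and from 1.88 over 62.9 to 101 at ZT12. Across cells the late mitotic and S phase lists gave Spearman correlations of -0.63 (187 ZT0 cells) and -0.46 (43 ZT12 cells). The rule also left out most cells low in both lists, which can make such a correlation more negative. The other kept cells had late mitotic medians of 1.46 and 1.23 and S phase medians of 4.62 and 4.96. The cells of a library share its preparation, and shares of 1 total constrain each other, so these correlations are descriptions.

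At ZT0 the mitotic-rule cells were spread over the whole S phase range. Those below 16 per 10000 numbered 41, with a late mitotic median of 54.1. Those from 16 to 40 numbered 66 (late mitotic median 38.5), those from 40 to 60 numbered 39 (21.2), and those at 60 or more numbered 41 (17.0). At ZT12 17 cells lay below 16, with a late mitotic median of 26.3, only 4 from 16 to 40 (57.3), none from 40 to 60, and 22 at 60 or more (10.8). The ranges were set with the cell values available, and no ZT12 cell lay between 37.0 and 62.9. The range from 40 to 60 falls inside that gap. Its exact interval of up to 8.22% of the 43 cells, beside 20.9% of the ZT0 cells, is therefore only a description. A few cells were low in both lists, with under 16 of the S phase and under 20 of the late mitotic list, namely 7 at ZT0 and 8 at ZT12.

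**Figure D2:**
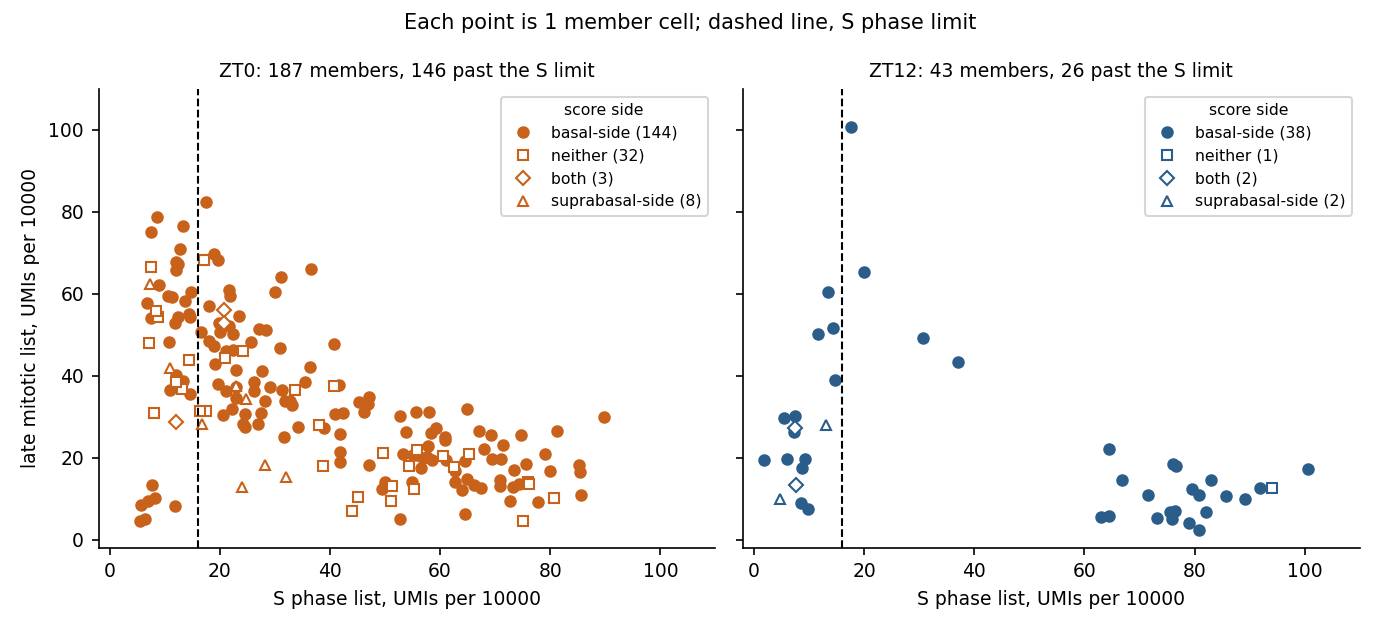
Summed S phase list against summed late mitotic list in each mitotic-rule cell, both per 10000 UMIs, with 1 panel per library, members being the mitotic-rule cells and the marker shape giving the side of the cell by its keratin and adhesion transcripts, as described further on. The ZT0 cells run along a band from high S phase with low late mitotic levels to the reverse, while 22 of the 43 ZT12 cells sit at 60 or more on the S phase axis.

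A gene was counted as higher or lower in a comparison when its mean level was at least 50 CPM, its difference was at least 1 on the log2 scale of CPM plus 1 (2-fold), and the interval of its ratio left out 1. The 6 rule genes were not tested. Gene lists were counted by the same rule from 20 CPM on. Against all other kept cells, mitotic-rule cells held 290 higher genes at ZT0 (9.74% of 2977 tested) and 150 lower genes (5.04%), and at ZT12 262 higher (8.85% of 2962) and 206 lower (6.95%). In both libraries 189 genes were higher and 131 lower. Under the list rule the shares over all genes were 9.67% higher and 5.11% lower at ZT0 and 10.3% and 6.52% at ZT12. The cells were chosen on transcripts of the same cells, so the gene differences between mitotic-rule cells and any other cells describe the group and support nothing further. Replicating cells, which carry replication transcripts but lie below the mitotic limit, were used as the nearer comparison. There 175 genes were higher at ZT0 (5.84% of 2996) and 97 at ZT12 (3.26% of 2972), 87 of them in both, and 24 (0.801%) and 33 (1.11%) were lower, 4 of them in both. Under the list rule, the background for the lists that follow, 5.21% of all genes were higher and 1.36% lower at ZT0, and 3.89% and 1.54% at ZT12.

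Mitotic cyclins and kinases were higher than in replicating cells for 15 of 15 measured genes at ZT0 and 14 of 14 at ZT12, with median log2 differences of 4.41 and 3.59 beside 0.05 and 0.03 over all measured genes. Ccnb1, cyclin B1, which activates Cdk1 for entry into mitosis, ran from 0 over 2.65 to 11.7 per 10000 in single ZT0 cells and from 0 over 0.877 to 10.1 in ZT12 cells. Its summed level was 339 CPM in mitotic-rule cells and 12.2 in replicating cells at ZT0, and 186 and 6.56 CPM at ZT12. Ccnb2 stood at 253 against 1.26 CPM and at 173 against 2.37 CPM. Ccna2, cyclin A2, which acts in S phase and in entry into mitosis, was 26.0-fold (17.9 to 39.6) higher at ZT0 and 23.7-fold (17.1 to 33.5) at ZT12, beside 27.8-fold (19.3 to 41.7) and 28.3-fold (20.5 to 39.7) for Ccnb1. Plk1, a kinase of spindle and cytokinesis control, stood at 148 against 2.52 CPM and at 69.6 against 0.838 CPM. Cdk1 itself stood at 452 against 37.4 CPM at ZT0, 12.1-fold (9.80 to 15.1), and at 251 against 36.5 CPM at ZT12, 6.88-fold (5.78 to 8.18).

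After thinning every cell to 10000 UMIs, a Ccnb1 transcript was seen in 82.2% of mitotic-rule cells at ZT0 and 69.8% at ZT12. The share was 8.24% and 6.05% in replicating cells and 1.76% and 0.412% in suprabasal-side cells. The latter were taken from below the mitotic and S phase limits, so their low share is partly set by that choice. It measures free RNA and stray counts only if these cells lack cyclin B1, which was not tested. Thinning left out 2 mitotic-rule cells at ZT0 and none at ZT12, as well as 4 replicating cells at ZT12, and 5 and 22 suprabasal-side cells, which lay below that depth. The median depths before thinning were 38859 and 25744 UMIs in mitotic-rule cells and 38716.5 and 32469 in suprabasal-side cells.

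Spindle and motor genes were higher for 22 of 23 measured genes at ZT0 (median 3.93) and 18 of 19 at ZT12 (median 3.61). Kif11 stood at 253 CPM in mitotic-rule cells and 11.8 in replicating cells at ZT0, and at 145 and 5.73 CPM at ZT12. In single cells it ran from 0 over 2.27 to 7.29 per 10000 at ZT0 and from 0 over 0.769 to 4.77 at ZT12. Hmmr ran from 0 over 1.74 to 6.02 and from 0 over 0.859 to 5.83 per 10000, and its summed level was 198 against 2.1 CPM at ZT0 and 135 against 2.1 CPM at ZT12. Aspm, a spindle pole protein, was 62.6-fold (30.3 to 156) and 41.1-fold (24.9 to 71.9) above replicating cells. Tpx2, which activates Aurora A at the spindle, was less far apart, by 8.56-fold (6.77 to 11.0) and 8.54-fold (6.97 to 10.5).

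Kinetochore and centromere genes were higher for 24 of 26 measured genes at ZT0 (median 3.05) and 23 of 24 at ZT12 (median 3.08). Outside the rule genes, Cenpa had the largest difference from replicating cells when genes were ranked by the smaller of their 2 differences. It ran from 0 over 3.40 to 12.9 per 10000 in ZT0 cells and from 0 over 2.17 to 11.1 in ZT12 cells, and summed to 404 against 4.62 CPM and to 297 against 2.79 CPM. Cenpe, a kinetochore motor, was 27.4-fold (17.9 to 44.4) and 34.9-fold (24.7 to 50.5) higher. Knl1, a scaffold that recruits the spindle checkpoint, was 20.4-fold (13.7 to 32) and 23.1-fold (16.5 to 32.8) higher.

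Of 16 measured spindle checkpoint and anaphase genes 7 were higher at ZT0, and 6 of 15 at ZT12, with medians of 0.83 and 0.85, and none was lower. Cdc20 was among the higher ones, at 389 against 13.0 CPM at ZT0 and 312 against 17.3 CPM at ZT12, and ran from 0 over 2.97 to 14.2 and from 0 over 1.17 to 17.3 per 10000 in single cells. Bub1b, the checkpoint kinase BubR1, was 21.7-fold (13.1 to 38.9) and 16.6-fold (11.4 to 24.8) higher. Pttg1, which encodes securin, the inhibitor of separase, stood at 33.0 CPM in mitotic-rule cells and 33.7 CPM in all other cells at ZT0, a ratio of 0.979 (0.851 to 1.12), and at 40.3 against 28.9 CPM at ZT12.

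Among condensin and cohesin genes, which compact chromosomes and hold sister chromatids, 8 of 15 were higher in each library (medians 1.03 and 1.44). Smc4, a condensin subunit, was 5.87-fold (5.21 to 6.64) and 3.53-fold (3.15 to 3.96) higher. Of 9 measured cytokinesis genes 6 were higher in each library. Anln, anillin of the cleavage furrow, stood at 406 against 27.3 CPM at ZT0 and 253 against 17.5 CPM at ZT12. Chromatin and tubulin genes were higher for 21 of 23 at ZT0 and 16 of 23 at ZT12 by smaller factors from much higher levels. Hmgb2, a chromatin protein, stood at 2643 against 482 CPM and at 1960 against 393 CPM, and ran from 0.756 over 27.4 to 47.7 per 10000 in single ZT0 cells.

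Clustered histone genes were higher for 10 of 11 measured genes at ZT0 (median 4.63) and 5 of 7 at ZT12 (median 3.20). Hist1h2ap, an H2A gene, stood at 784 against 7.56 CPM at ZT0 and at 391 against 6.15 CPM at ZT12. Hist1h1b, a linker histone gene, stood at 540 against 7.98 CPM and at 259 against 6.56 CPM. Replicating cells, though rich in S phase transcripts, thus held hardly any of either. On the per-cell scale of the other lists, the clustered histone list had medians of 0.981 (ZT0) and 1.63 (ZT12) in replicating cells. Basal-side cells, described further on, had 2.83 and 3.34, and mitotic-rule cells 22.9 and 9.32. After thinning, Hist1h2ap was seen in 8.24% and 2.23% of replicating cells and in 2.46% and 2.81% of basal-side cells. The name of replicating cells rests on the S phase list alone, and whether they were copying DNA was not tested. Clustered histone genes lie in near-identical copies, so the copy a read belongs to is uncertain. Most of their transcripts lack the poly-A tail by which this method captures RNA.

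Replication genes were spread around the level of replicating cells. Those cells were chosen by the S phase list, which overlaps the licensing list, so their levels of these genes, and the differences from them, are partly set by that choice. At ZT0 11 of 41 measured genes were higher and 7 lower than in replicating cells (median 0.18), and at ZT12 12 of 42 were higher and none lower (median 0.55). Rrm2, a subunit of the enzyme that makes deoxynucleotides, was higher by 2.24-fold (1.91 to 2.62) and 5.76-fold (4.86 to 6.82). Origin licensing genes were lower for 5 of 11 at ZT0 and none was higher (median -0.94), whereas at ZT12 none was lower and 2 were higher (median 0.00). Mcm6 stood at 63.5 against 141 CPM at ZT0 and at 142 against 179 CPM at ZT12. Mcm3, another helicase subunit, stood at 61.5 against 133 CPM and at 156 against 189 CPM.

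**Figure D3:**
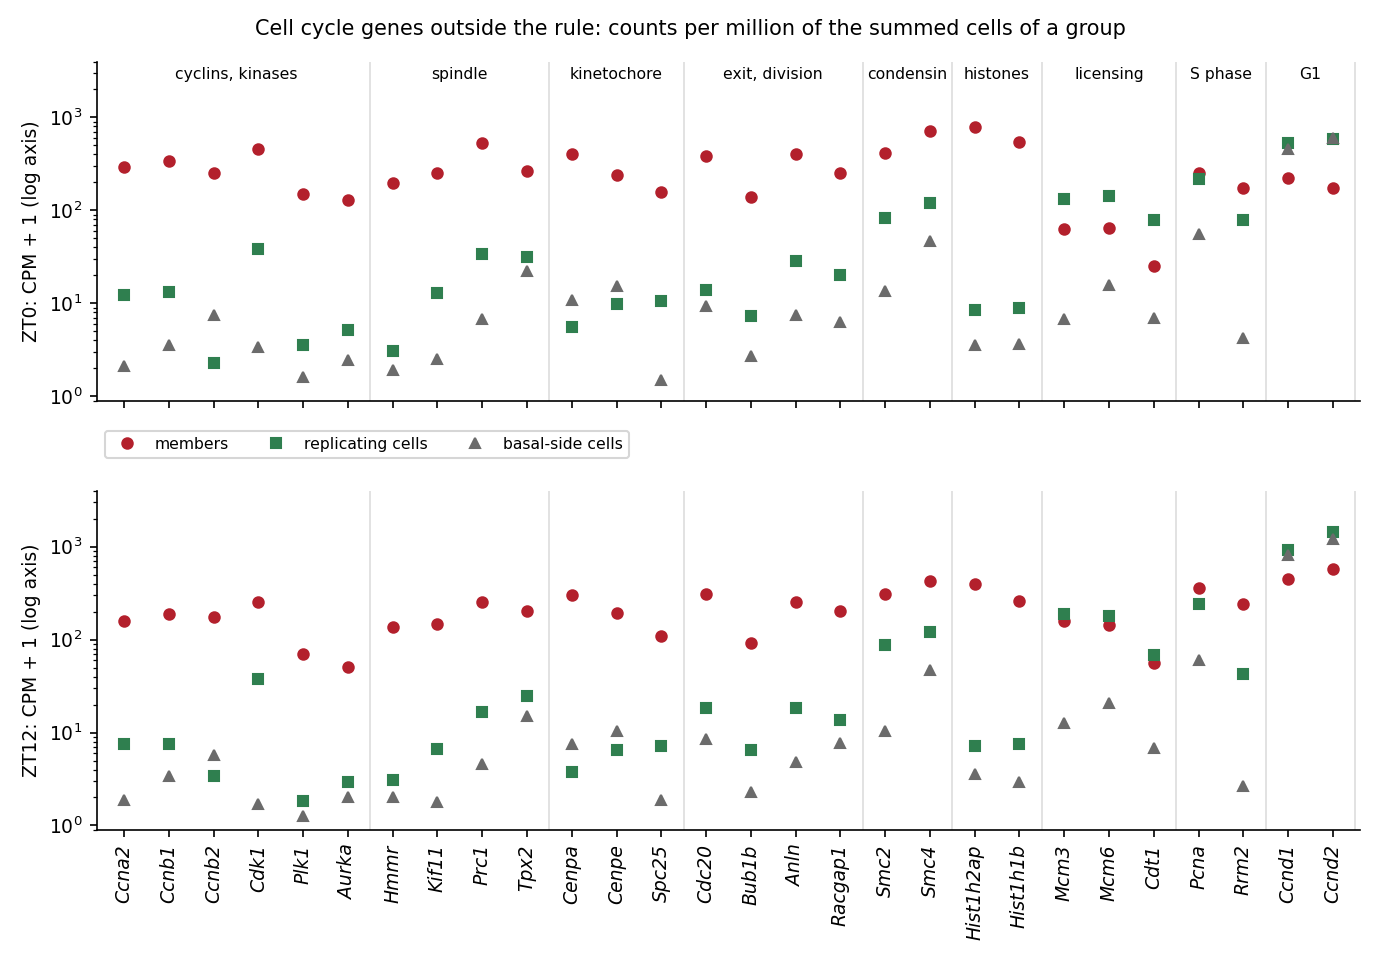
Level of 28 cell cycle genes in mitotic-rule (members), replicating and basal-side cells, as CPM plus 1 on a log axis, with 1 panel per library. The mitotic genes stand apart in the mitotic-rule cells (Cenpa at 404 against 4.62 CPM in replicating cells at ZT0), and the licensing gene Mcm6 is highest in the replicating cells (141 CPM at ZT0, 179 CPM at ZT12). Both groups were chosen by transcripts of these kinds.

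The 4 genes lower than in replicating cells in both libraries were Ccnd2, Ccnd1, Sostdc1 and Vsnl1. Ccnd2 and Ccnd1 encode cyclins D2 and D1, which act in G1 phase. Ccnd2 stood at 174 against 581 CPM at ZT0 and at 578 against 1432 CPM at ZT12. Ccnd1 stood at 223 against 528 CPM and at 448 against 914 CPM. Sostdc1, a secreted inhibitor of BMP and Wnt signalling, stood at 118 against 358 CPM and at 108 against 309 CPM. Vsnl1, a calcium sensor, stood at 32 against 71.4 CPM and at 43.0 against 93.0 CPM.

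Within the group, cells past the S phase limit were set against cells below it. At ZT0 85 genes were higher past the limit (2.73% of 3108 tested) and 37 lower (1.19%), and at ZT12, with 26 against 17 cells, 220 (7.16% of 3073) and 201 (6.54%). In both libraries 66 genes were higher and 10 lower. The S phase list made this split, so its own genes, among them Rrm2 and Pcna, are no finding here. Under the list rule 3.01% of all genes were higher and 1.41% lower at ZT0, and 8.47% and 7.17% at ZT12. Of 13 measured clustered histone genes 9 were higher past the limit at ZT0 and 1 lower, and at ZT12 5 of 9 were higher and 4 lower. Hist1h2ap stood at 1000 CPM past the limit and 45.8 below it at ZT0, and at 563 against 11.7 CPM at ZT12. Hist1h2bc stood the other way, at 52.5 against 201 CPM and at 17.3 against 266 CPM. Cenpa was also lower past the limit, at 323 against 678 CPM and at 178 against 559 CPM and so was Cdkn3, a phosphatase of cyclin-dependent kinases, at 92.3 against 186 CPM and at 50.6 against 146 CPM. Cdc20 stayed just short of the 2-fold rule, at 317 against 632 CPM and at 244 against 463 CPM. Not every mitotic gene did so. The mitotic cyclin and kinase list had a median of 0.00 at ZT0 with 2 of 15 genes higher, and of 1.14 at ZT12 with 8 of 15 higher and 1 lower. Of the kinetochore and centromere genes, Cenpa among them, 3 of 29 were higher past the limit and 1 lower at ZT0 (median 0.34), and 15 of 26 were higher and 1 lower at ZT12 (median 1.2). At ZT0 3 of 11 immune genes were measured, and all 3 were lower past the limit (median -6.12). Of the 864 immune UMIs of the ZT0 mitotic-rule cells 778 came from 1 cell, so this value describes few cells and not the group. The part of such cells in the other differences was not tested.

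The side of each cell in the epithelium was read from 9 basal genes (Krt5, Krt15, Col17a1, Itga6, Itgb4, Itgb1, Itga3, Lamb3 and Trp63) and 7 suprabasal genes (Krt13, Krt4, Krtdap, Sbsn, Dmkn, Calml3 and Lypd3). A cell was on the basal side when the basal sum was at or above, and the suprabasal sum below, the median of all other kept cells (66.6 and 204 per 10000). Among the mitotic-rule cells of ZT0, 144 of 187 lay on this side (77.0%, 70.3 to 82.8), and among those of ZT12, 38 of 43 (88.4%, 74.9 to 96.1). Suprabasal-side cells numbered 8 and 2, cells high in both sums 3 and 2, and cells low in both 32 and 1. Within 25% of the basal limit lay 46 and 7 mitotic-rule cells, and within 25% of the suprabasal limit 19 and 3, so the classes are ranges and not cell types. Of replicating cells 89.4% and 94.0% were on the basal side, and of all other kept cells 43.2% and 37.3%.

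The share of mitotic-rule cells was higher at ZT0 in 3 of the 4 ranges by an interval that left out 1. It was 19.9% against 3.90% of basal-side cells, a ratio of 5.11 (3.55 to 7.51), and 1.52% against 0.200% of suprabasal-side cells, a ratio of 7.59 (1.51 to 73.4) that rested on 8 and 2 cells. Among cells low in both sums it was 16.6% against 0.40%, which rested on 32 and 1 cells, a ratio of 41.5 (6.92 to 1688). Among cells high in both sums it was 3.57% against 0.604%, from 3 and 2 cells, and the interval of this ratio of 5.91 (0.677 to 70.8) took in 1.

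**Figure D4:**
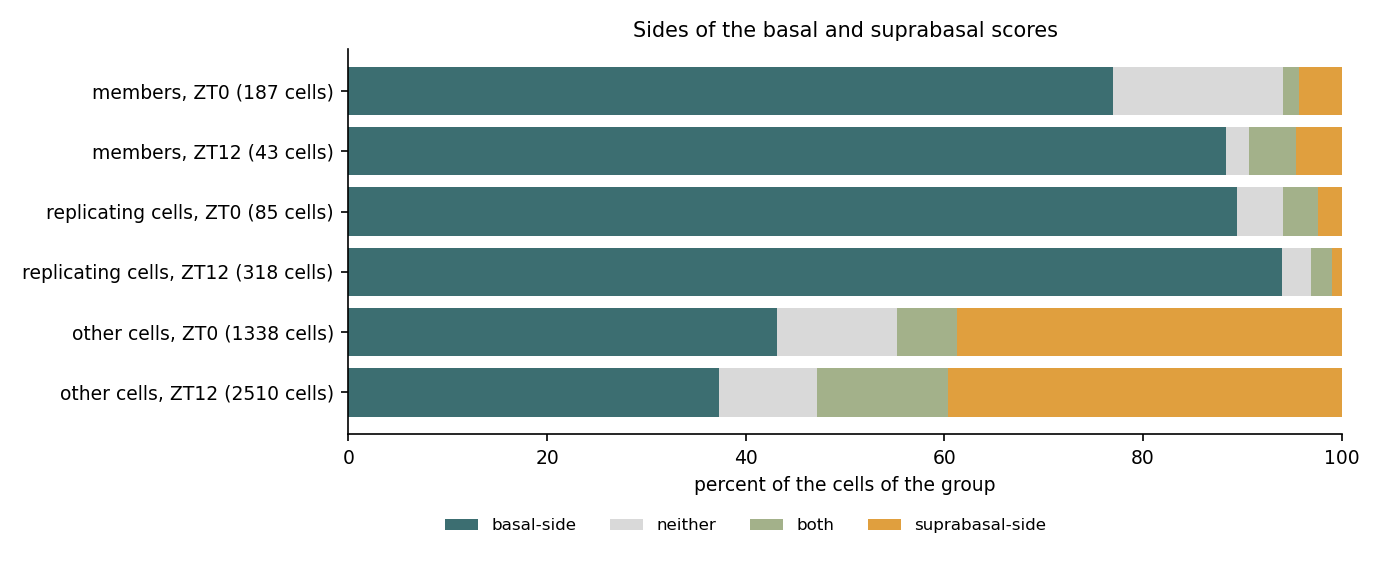
Percent of cells by side (basal, suprabasal, both sums high, both sums low), stacked to 100, for mitotic-rule, replicating and all other kept cells of each library. The basal side takes 77.0% and 88.4% of the mitotic-rule cells at ZT0 and ZT12 and 43.2% and 37.3% of the other cells.

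Krt5, Krt13 and Krt4 are themselves score genes, so their levels describe the sides. Krt5, the basal keratin, ran from 0 over 36.5 to 78.3 per 10000 in mitotic-rule cells at ZT0 and from 13.2 over 42.0 to 76.3 at ZT12, and Krt13, a suprabasal keratin of the tongue, from 0 over 13.5 to 241 and from 2.07 over 9.47 to 226. The summed level of Krt5 was 3437 CPM in mitotic-rule cells against 2461 in other cells at ZT0 and 4359 against 2484 at ZT12, below the 2-fold rule in both. Of the 9 basal score genes none was higher than in other cells at ZT0 and 3 were at ZT12, and of 16 basal keratinocyte genes 0 and 4 were. The summed level of Krt13 was 4443 CPM in mitotic-rule cells against 20756 in other cells at ZT0 and 3273 against 26256 at ZT12. Krt4, its keratin partner, stood at 930 against 10521 CPM and at 624 against 12536 CPM. In the ZT12 sum 1 cell held 48% of the Krt4 UMIs. All 7 suprabasal score genes were lower than in other cells in both libraries (medians -2.22 and -3.59), as were all 9 and 7 measured cornified envelope genes (-3.70 and -4.88). Krt84 and Krt36, hard keratins of the filiform papillae, were at 1.64 and 6.00 CPM against 195 and 449 CPM at ZT0 and at 1.83 and 10.1 CPM against 206 and 428 CPM at ZT12.

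Mitotic-rule cells off the basal side were set against those on it, 43 against 144 cells at ZT0 and 5 against 38 at ZT12. At ZT0 48 genes were higher off the basal side (1.57% of 3048) and 53 lower (1.74%), and at ZT12 156 (5.10% of 3061) and 155 (5.06%). Under the list rule 1.8% and 1.97% of all genes were called at ZT0, and 5.06% and 4.42% at ZT12. The score genes made this split. Outside them, Fabp5, a fatty acid binding protein of differentiating keratinocytes, stood at 2917 against 771 CPM at ZT0, Tgm3, a cornified envelope transglutaminase, at 131 against 12.8 CPM, Krt14, the partner of Krt5, at 2017 against 7465 CPM, and Ccnd2 at 56.5 against 216 CPM. At ZT0 3 of 3 measured immune genes were also higher off the basal side (median 5.68), where the cells held 847 of the 864 immune UMIs, 778 of them in 1 cell. Of the 43 cells there, 4 held 10 or more immune UMIs, and 3 of these 4 also had under 10 per 10000 in the 2 score sums together. Without the 4 cells, a comparison added after seeing the data, 45 genes were higher and 53 lower off the basal side, with Fabp5 at 3009, Tgm3 at 135, Krt14 at 2032 and Ccnd2 at 39.8 CPM. The 9 mitotic lists had medians between -0.31 and -0.07 at ZT0 with no gene of theirs higher or lower. At ZT12 their medians lay between -0.99 and -0.16, from 5 cells off the basal side. There 5 of 15 cyclins and kinases, 7 of 20 spindle, 8 of 25 kinetochore and 8 of 23 chromatin genes were lower and none of these higher.

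Basal-side cells that were neither mitotic-rule nor replicating numbered 502 at ZT0 and 637 at ZT12. Against them, 246 genes were higher in mitotic-rule cells at ZT0 (8.14% of 3022) and 54 lower (1.79%), and at ZT12 183 (6.12% of 2988) and 65 (2.18%), with 153 and 27 in both. Beside Ccnd2, the genes lower in both included Foxq1, a forkhead transcription factor, at 24.8 against 105 CPM and at 2.75 against 136 CPM, Mxd4, a Max partner that opposes Myc, at 42.3 against 149 CPM and at 40.3 against 120 CPM, and Maf, a basic leucine zipper transcription factor, at 73.8 against 181 CPM and at 77.8 against 305 CPM. Cdkn1a, the Cdk inhibitor p21, stood at 187 CPM in mitotic-rule cells, 296 in basal-side cells and 100 in replicating cells at ZT0, and at 77.8, 249 and 79.9 CPM at ZT12.

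Markers of other cells were read in the same sums. Of 11 immune genes all had UMIs in the ZT0 mitotic-rule cells, 864 in all, of which 778 came from 1 cell, and none had any in those of ZT12. Without the 4 ZT0 cells that held 10 or more of these UMIs the share ratio was 7.14. Of the mesenchymal list only Dcn was high, at about the same summed list level in both libraries (1289 and 1296 CPM), while Col1a2, Col3a1, Lum and Pdgfra were at 0 in the mitotic-rule cells of both. The list had UMIs in 120 of 187 and 29 of 43 of these cells, and stood at 727 and 407 CPM in the other kept cells. Dcn met the rule as higher than in the other cells at ZT12 only. Against replicating and basal-side cells it met the rule in neither library. Endothelial genes gave 5 and 0 UMIs, melanocyte genes 10 and 0, muscle genes 6 and 1, and genes of taste cells and simple epithelium 89 and 7.

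Inside the group, 20 genes were higher at ZT12 than at ZT0 (0.656% of 3049 tested) and 58 lower (1.90%). Over the cells outside it, 9 genes were higher and 9 lower at ZT12 (0.321% each of 2808), and in replicating cells 23 higher (0.796% of 2890) and 11 lower (0.381%). Of the 20 and 58 genes, 5 and 8 were called the same way in replicating cells and 2 of the lower ones the opposite way. Under the list rule 1.19% of all genes were higher and 2.01% lower. The ZT12 sum rests on 43 cells, and all these values compare 1 library with another.

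Clock genes showed the largest differences upward. Dbp, a transcription factor driven directly by the clock, was seen in 15 of 187 cells at ZT0 and in 40 of 43 at ZT12, and stood at 2.73 and 189 CPM, a ratio of 69.5 (43.8 to 116). Per3, a clock repressor, stood at 5.45 and 106 CPM, and Tef, a relative of Dbp, at 5.86 and 73.2 CPM. Nr1d1 and Nr1d2, which encode the REV-ERB repressors, stood at 11.9 and 68.6 CPM and at 8.32 and 63.1 CPM. Of 11 clock genes 9 were measured and 6 of these were higher at ZT12, with a median of 2.44, beside 2.38 in replicating and 2.42 in basal-side cells. Here a gene could pass the minimum of 20 CPM by its ZT12 level alone. Arntl, the activator BMAL1, was at 28.5 CPM at ZT0 and at 1.83 CPM at ZT12, and Npas2, a partner of BMAL1, was at 8.18 CPM at ZT0 and had no UMI at ZT12, at least 2.98-fold lower when 3 counts are taken for the 43 cells together.

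Genes of interferon response and antigen presentation were among the largest differences downward. Of the 20 genes of the interferon list 5 were measured, and all 5 stood lower at ZT12 (median -4.41). Of 12 antigen presentation genes 9 were measured, and 7 of these stood lower (median -2.44). A gene could pass the minimum of 20 CPM by its ZT0 level alone, so these counts and medians favour genes high at ZT0. The same medians were -4.27 and -1.74 in replicating cells, -2.10 and -1.56 in basal-side cells and -3.38 and -1.48 in all other kept cells. Ifi27l2a, an interferon-induced gene, stood at 519 and 22.0 CPM. B2m, the invariant chain of MHC class I, ran from 0 over 1.67 to 41.0 per 10000 at ZT0 and from 0 over 0.281 to 5.59 at ZT12, and summed to 398 and 45.8 CPM, of which 1 ZT12 cell held 34%. H2-K1, an MHC class I heavy chain, ran from 0 over 3.40 to 47.8 and from 0 over 0.95 to 6.25 per 10000, so that the ranges overlapped, and summed to 671 and 95.2 CPM. MHC class I and Ifi27 genes have close relatives with which reads can be shared. H2-Q7 was at 101 CPM at ZT0 and had no UMI at ZT12, at least 36.8-fold lower when 3 counts are taken for all its cells together. Chil4, a chitinase-like protein, had no UMI at ZT12 either, but 1 cell held 88% of its UMIs at ZT0.

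Ccnd2 and part of the replication genes were higher at ZT12. Ccnd2 ran from 0 over 1.09 to 14.1 per 10000 in ZT0 cells and from 0 over 5.32 to 15.2 in ZT12 cells, and summed to 174 and 578 CPM, a ratio of 3.32 (3.02 to 3.66). It was also higher at ZT12 in replicating cells, at 581 and 1432 CPM. Origin licensing genes were higher for 7 of 11 (median 1.13, beside 0.34 in replicating cells and -0.02 over all measured genes) and S phase genes for 12 of 42 (median 0.55). Mcm3 stood at 61.5 and 156 CPM and Ccne2, cyclin E2 of the start of S phase, at 25.2 and 80.5 CPM. Hpgd, which degrades prostaglandins, stood at 260 and 805 CPM, and Pappa, a metalloprotease that frees insulin-like growth factors, at 71.6 and 211 CPM. Single cells spread widely in these genes, Hpgd from 0 over 1.07 to 23.7 per 10000 at ZT0 and from 0 over 4.39 to 30.1 at ZT12.

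Some mitotic genes were lower at ZT12 inside the group, and the median of the late mitotic list depended on how the cells were chosen. Of the mitotic cyclins and kinases 5 of 15 were lower and none higher (median -0.87), of spindle genes 6 of 23 (-0.65), and of kinetochore genes 1 of 28 (-0.41). Of checkpoint genes 1 of 16 was lower (-0.32), and none of 15 condensin and cohesin genes (-0.25) or of 9 cytokinesis genes (-0.34). Tuba1c, an alpha tubulin, stood at 442 and 127 CPM, of which 1 ZT12 cell held 32%, and Aurka, the Aurora A kinase, at 127 and 49.4 CPM. The late mitotic list had a median of -0.55 over its 12 genes. That value was -0.39 among the 33 and 30 cells with a rule level under 25 per 10000. It was 0.04 among the 126 and 18 cells chosen by the other 6 mitotic genes. Some of those 6, Cdc20 among them, are on the late mitotic list, so the value of 0.04 is partly set by that choice. For licensing genes the same 2 selections gave 0.55 and 0.12. The rule genes themselves, with Ube2c at 933 and 323 CPM and Mki67 at 756 and 687 CPM, chose the cells and are no finding.

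**Figure D5:**
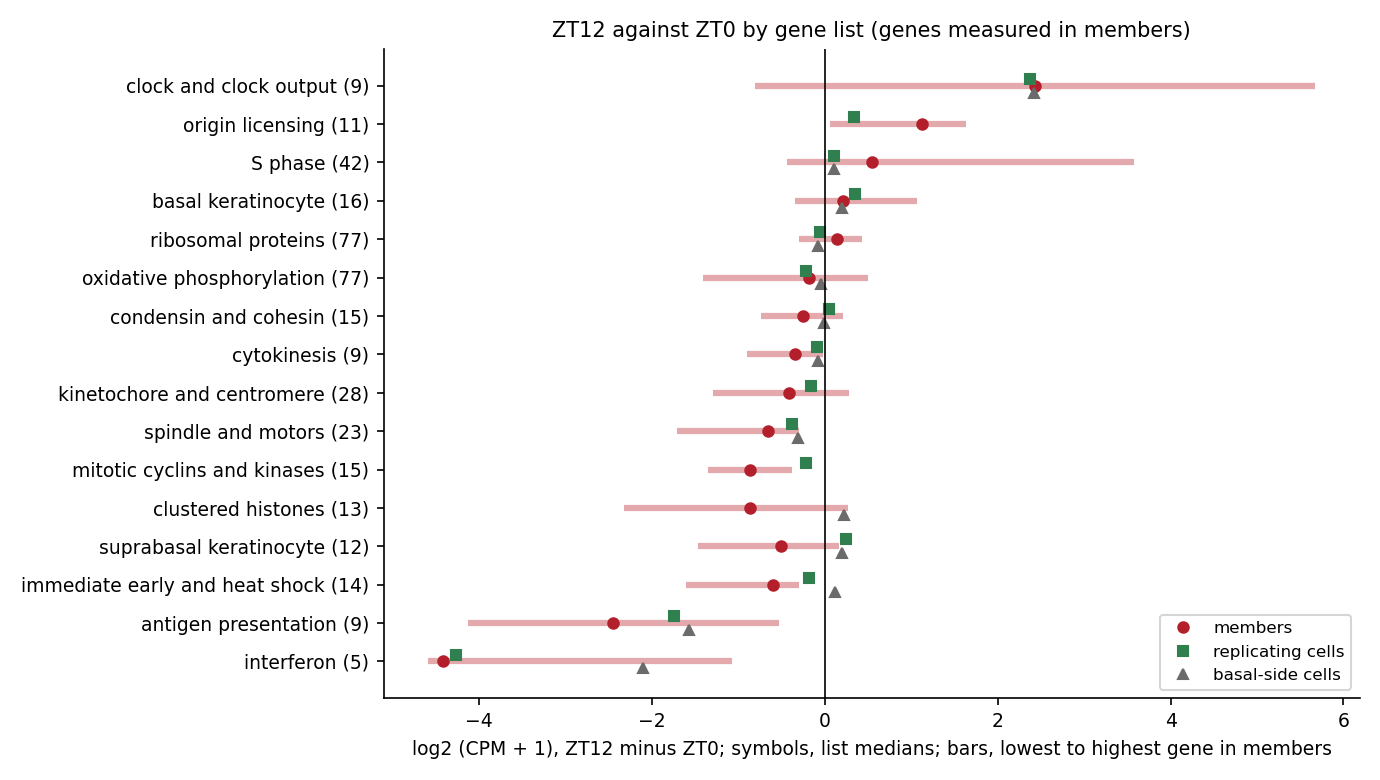
Median log2 difference of ZT12 minus ZT0 for each gene list in mitotic-rule cells, with bars from the lowest to the highest gene, and the medians in replicating and basal-side cells beside them. The 9 measured clock genes lie at 2.44 and the 5 measured interferon genes at -4.41 in mitotic-rule cells, with replicating cells at 2.38 and -4.27.

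Clustered histone genes were lower at ZT12 for 6 of 13 (median -0.86), with Hist1h2ae, an H2A gene, at 282 and 70.5 CPM. In single cells Hist1h2ap ran from 0 over 6.76 to 33.1 per 10000 at ZT0 and from 0 over 0.782 to 17.4 at ZT12. Immediate early and heat shock genes, which respond to dissociation as well as to growth signals, were lower for 3 of 14 and higher for none (median -0.60). Fos, an AP-1 subunit, stood at 1556 and 684 CPM in mitotic-rule cells but at 735 and 623 CPM in the other cells, and Atf3, a stress-induced factor, at 537 and 177 CPM, of which 1 ZT12 cell held 33%. The part of dissociation in these differences was not tested.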

How the data were processed

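Raw UMI counts of 32285 genes per cell barcode were used as the authors deposited them. Per the submitters' processing notes they were made with Cell Ranger 2.1.1 on mm10, while the file headers name Cell Ranger 4.0.0, and which applies is not settled by the sources used here. Free RNA was not corrected and no doublet caller was run. All per-sample columns were used.

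Cells were filtered and chosen as the report states, which removed 201 barcodes at ZT0 and 266 at ZT12. UMIs were summed over the cells of a group in each library, scaled to CPM of that sum, and compared as the log2 ratio of CPM plus 1. Intervals at 95% are exact Clopper-Pearson for a share and exact conditional binomial for a ratio, and cover counting error only. Since each time has a single library, no difference between times could be tested.

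The genes named were the 6 rule genes, the 12 highest and 12 lowest ratios under the size rule (met in both libraries where each gave a comparison), up to 6 members per list by size of ratio from 20 CPM on, the clock genes, and the basal and suprabasal score genes. Pttg1, Cdkn1a, Fos, Vsnl1, Tuba1c, Cdkn3, Hist1h2bc, Fabp5, Tgm3, Krt14, Ccnd1, Bub1b, Smc4, Mcm3, Mcm6 and Mki67 are given for their known roles, and where they fall outside this rule they were chosen after their values were seen. The cell selection and the gene lists were chosen with earlier results of these data known. In simulated counts for the comparison of ZT12 with ZT0 in mitotic-rule cells (32285 genes), the size rule called 66 of 66 genes changed 3-fold and 63 of 63 changed 5-fold. It called 0 of 71 genes changed 1.25-fold and 0 of 2771 unchanged genes. These counts were Poisson draws of the group sums without spread between cells or libraries, and the changed genes lay well above the minimum CPM. They check the working of the 2-fold rule and give no error rate for the real sums, in which single cells can hold much of a gene. Alternatives covered the cell filter, the limits, the choice of genes, depth, doublets, minimum CPM, pseudocount, scaling and averaging over cells. Promoter windows came from RefSeq (GRCm38.p6). Python 3.11.15, numpy 2.4.6, scipy 1.17.1, pandas 2.3.3 and matplotlib 3.10.9 were used.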

Additional observations from a re-analysis of the deposited data

Results flagged for a closer look

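Opposite directions in 2 groups, with no test of the difference, were seen in 3 genes. Ndufa4l2, a mitochondrial protein related to complex subunits, was above the level of replicating cells in mitotic-rule cells at ZT0 (log2 difference 1.23) and below it at ZT12 (-1.45). Krt24, a keratin, stood at 1.16 and -1.54 in the same order, and Gm94, a predicted gene, at 1.26 and -1.94. From ZT0 to ZT12 Ndufa4l2 differed by -1.41 in mitotic-rule cells and by 1.27 in replicating cells, and Gm94 by -2.19 and 1.01. All 3 genes were at higher levels in the other kept cells than in mitotic-rule cells in both libraries. In the ZT12 sum of mitotic-rule cells 1 cell held 29% of the Krt24 UMIs.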

How the results depend on the processing

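No paired analysis was possible because each time has 1 library and the labels give no replicate numbers, and for the same reason no library could be left out. Of 193 alternative values of the main shares and counts, 154 kept their direction and size. The share ratio moved to 4.58 and 13.6 with limits of 5 and 20 per 10000 and to 11.7 with 6 other mitotic genes. The share of mitotic-rule cells past the S phase limit moved to 71.4% (ZT0) and 38.9% (ZT12) with those genes, to 93.6% and 81.4% with an S phase limit of 8, and at ZT0 to 48.7% with a limit of 32. Among cells with a rule level under 25, a choice made after seeing the data, it was 60.6% at ZT0, and 63.6% lay on the basal side. The number of genes higher at ZT12 was 33 with a rule limit of 20, and the cause was not tested.

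By construction, a lower minimum of 20 CPM tests more genes and gave 588 higher and 311 lower against other cells at ZT0 and 615 and 388 at ZT12, 319 and 83 and then 233 and 92 against replicating cells, 481 and 138 and then 433 and 161 against basal-side cells, and 72 and 122 between times. A minimum of 100 CPM gave 133 and 79 and then 124 and 113, 94 and 8 and then 48 higher at ZT12, 117 and 27 and then 95 and 41, and 10 and 32, in the same order. Centring on the median ratio gave 38 lower genes against replicating cells at ZT0. The sign changed for 2 values between times. The late mitotic median was 0.043 with 6 other mitotic genes (main value -0.55), some of which are on that list themselves. The suprabasal score median was 0.024 without the 5% of cells with the most UMIs (main value -0.44). The cause was not tested in either case. Over 15 alternatives the clock median lay between 1.70 and 2.83 and the interferon median between -4.54 and -2.71. The 43 mitotic-rule cells of ZT12 and their 1092719 UMIs limit every comparison that uses them.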

Other observations

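Against replicating cells, lists outside the cell cycle differed in how many of their genes were called. Over all genes 5.21% were higher and 1.36% lower at ZT0, and 3.89% and 1.54% at ZT12. Of 77 measured ribosomal protein genes none was higher or lower in either library (medians -0.36 and -0.16), and of 77 oxidative phosphorylation genes 1 was higher at ZT0 and 1 lower at ZT12 (medians 0.10 and 0.13). Basal keratinocyte genes had medians of -0.35 and -0.54, with 2 of 16 lower at ZT12. Of 14 immediate early and heat shock genes 3 were higher at ZT0 and 0 at ZT12. Lower at ZT12 were 3 of 5 filiform papilla genes, 3 of 7 markers of tongue zones and 2 of 12 suprabasal keratinocyte genes. At ZT0 these lists held 0 of 3, 1 of 6 and 0 of 12 lower genes, and 1 suprabasal gene was higher. Foxm1, a transcription factor of late cell cycle genes, stood at 69.3 CPM in mitotic-rule cells against 1.26 in replicating cells at ZT0 and at 40.3 against 1.26 CPM at ZT12, and Cdc25c, the phosphatase that activates Cdk1, at 55.1 against 0.420 CPM and at 23.8 against 0.559 CPM. Mybl2, which acts from S phase on, was less far apart, at 37.5 against 22.3 CPM and at 37.5 against 11.9 CPM.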
